A study of Mus musculus with 8 samples.

Results

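The crystallins described here are Cryaa, Cryab, Cryba1, Cryba2, Cryba4, Crybb1, Crybb2, Crybb3 and Crygs, 9 of the 23420 genes named in the deposited comparison of the mouse limbus and cornea. They were chosen by gene symbol as alpha, beta and gamma crystallins of the lens. Tissue came from young adult wild-type C57BL/6J mice without treatment. Limbal rims, the tissue that encircles the cornea at the edge of the conjunctiva, and corneal buttons, the cornea inside that ring, were pooled by tissue from several eyes, and stranded total RNA libraries were sequenced. The labels list 4 samples per tissue, whose titles are numbered in the way that sequencing lanes are. They do not say whether these are separate libraries. The deposited means fit 1 set of reads per tissue, treated here as 1 cornea and 1 limbus library. No difference therefore has a replicate check.

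Crystallins are the soluble proteins that fill the fiber cells of the lens and give it its refractive power. The alpha crystallins are small heat shock proteins that act as chaperones and keep other proteins from aggregating, whereas the beta and gamma crystallins are related to each other and share a compact Greek key fold. αB-crystallin (Cryab) is also made in striated muscle, glia and other tissues under stress, and several beta crystallins are known from the retina. Neither the limbus nor the cornea is known to contain lens fiber cells.

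The reads of each library were worked back from the deposited means. Reads on named genes numbered 26104317 for the cornea and 21182025 for the limbus, and size factors of 1.03 and 0.967 made their reads comparable. Ratios are limbus over cornea, with exact 95% confidence intervals (CI) that cover counting error only. With 1 library per tissue, variation between pools or dissections could not be estimated and is not in the CI. Amplified reads that carry no molecular identifier may come from the same molecule, so the CI may be too narrow even for counting error. Genes that exceeded 3 reads in at least 1 library numbered 15569, of which 34.0% were higher and 36.5% lower in the limbus beyond counting error, meaning that the CI of the log2 ratio excluded 0. The table does not say which tissue its fold change is over, so the direction rests on where the study placed its keratins. Corneal markers were present in both libraries, with Krt12, the keratin of the corneal epithelium, at 1137735 corneal and 233324 limbal reads, and Kera, the keratan sulfate proteoglycan keratocan of the stroma, at 12119 and 1423.

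All 9 crystallins had more normalized reads in the limbus than in the cornea, each beyond counting error, against 34.0% of all genes compared. For 8 of the 9 the ratio lay between 6.31-fold and 13.3-fold, and these 8 were among the 11.4% of genes that were at least 4-fold higher in the limbus beyond counting error. The exception was Cryab, which was 1.996-fold higher (95% CI 1.90 to 2.10). Over the 9 genes the log2 ratio had a median of 3.26, beside a median of 0.01 over all genes compared. In bulk tissue, fewer cells of a type and less RNA per cell cannot be told apart.

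Many crystallin genes are known to be switched on in the lens by transcription factors of the Maf family. Promoters were therefore read for the members from RefSeq on GRCm38.p6, where 8 of the 9 were found, all but Cryab. The letters TGCTGA, one arm of the Maf recognition element, occurred on either strand within 250 bases before the start in 7 of these 8 genes, compared with 16.1% of the 32851 promoters of the table. The TATA box letters TATAAA occurred in 3 of the 8, compared with 12.4% of all promoters. The core of the heat shock element, spelled GAANNTTC, was found in 0 of the 8 and in 6.69% of all promoters. Matches of the 3 motifs did not overlap one another in the 8 genes. Stretches of 4 genes are shown because they set the pattern of matches beside a member without one, with TGCTGA and TATAAA in capitals, each read 5′ to 3′ on the strand of the gene.
Cryba1: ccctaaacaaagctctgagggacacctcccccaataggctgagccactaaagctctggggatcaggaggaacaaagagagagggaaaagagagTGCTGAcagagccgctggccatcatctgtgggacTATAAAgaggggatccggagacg
Cryba4: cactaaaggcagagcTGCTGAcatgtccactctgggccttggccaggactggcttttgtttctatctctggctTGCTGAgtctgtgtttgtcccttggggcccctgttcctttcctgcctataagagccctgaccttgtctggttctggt
Crybb1: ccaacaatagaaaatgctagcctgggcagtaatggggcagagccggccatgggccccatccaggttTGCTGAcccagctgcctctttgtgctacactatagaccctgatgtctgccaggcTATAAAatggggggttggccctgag
Crybb2: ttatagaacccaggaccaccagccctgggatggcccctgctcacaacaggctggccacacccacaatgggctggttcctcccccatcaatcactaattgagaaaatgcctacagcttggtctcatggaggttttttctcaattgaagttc

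The Cryba1 stretch is chr11:77725294-77725443 on the minus strand and holds TGCTGA 57 bases and TATAAA 23 bases before the start. Cryba4, at chr5:112252519-112252668 on the minus strand, has TGCTGA at 135 and 77 bases before the start, with another match at 182 bases outside the stretch. Crybb1, at chr5:112255670-112255814 on the plus strand, has TGCTGA at 84 bases and TATAAA at 30 bases before the start. Crybb2, at chr5:113070118-113070267 on the minus strand, has no match to either in the 250 bases. Cryaa had TGCTGA at 108 bases, Crybb3 at 67 bases, Cryba2 at 149 bases and Crygs at 200 bases before the start, and the last 3 of these were on the opposite strand. A match is a description of letters and not a site. Whether the matches bear on the ratios of limbus over cornea was not tested.

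The alpha crystallins differed from each other. Cryaa, the alpha chain largely restricted to the lens, lies on chromosome 17 from 31677807 to 31681733 of GRCm38. It had 468 corneal and 5423 limbal reads, or 453 and 5606 normalized reads. The ratio was 12.4-fold (95% CI 11.3 to 13.6), a log2 ratio of 3.63, above that of 96.9% of the genes compared. By reads in the limbus library, Cryaa stood above 96.6% of the genes compared, and in the cornea library above 54.1%.

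Cryab, the alpha chain with chaperone roles outside the lens, lies on chromosome 9 from 50751325 to 50756636. It had 2518 corneal and 4703 limbal reads, or 2436 and 4862 normalized reads. Its log2 ratio, 0.997 with a 95% CI of 0.93 to 1.07, was lower than those of the other 8 members, and its interval was apart from all 8. Cryab already stood above 88.0% of the genes compared in the cornea library. In the cornea there were 0.186 Cryaa reads for each Cryab read (95% CI 0.168 to 0.205), whereas in the limbus there were 1.15 (95% CI 1.11 to 1.20). Cryaa thus had fewer reads than Cryab in the cornea and more in the limbus.

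**Figure D1:**
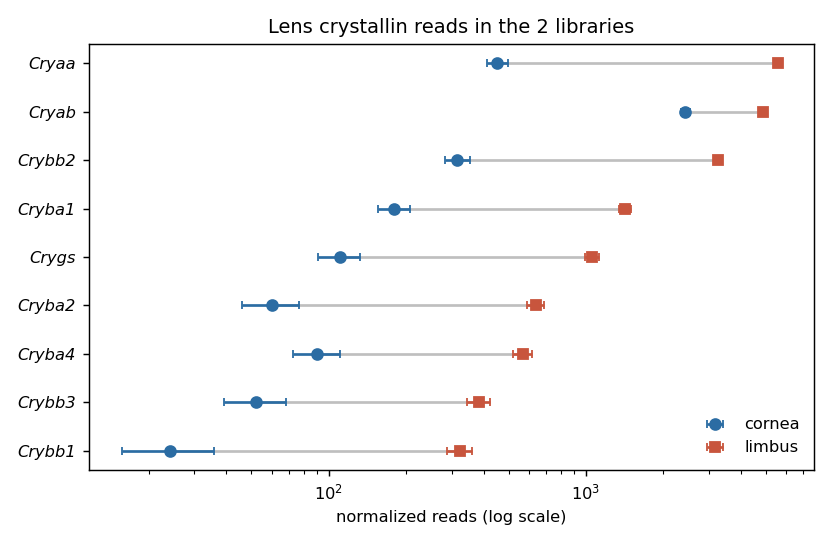
Normalized reads (log scale) of the 9 crystallins in the cornea library (circles) and the limbus library (squares), with exact 95% counting intervals. Cryab has 2436 normalized reads in the cornea, above the other members, while Cryaa rises from 453 to 5606.

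The 6 beta crystallins together had 747 corneal and 6369 limbal reads, a ratio of 9.11-fold (95% CI 8.44 to 9.84). The basic chains, Crybb1, Crybb2 and Crybb3, and the acidic chains, Cryba1, Cryba2 and Cryba4, pair in the oligomers of the lens. Crybb2, the most abundant of them here, lies on chromosome 5 from 113058258 to 113070117. It had 327 corneal and 3147 limbal reads, a ratio of 10.3-fold (95% CI 9.17 to 11.6). Crybb3, its neighbor with 5721 bases between the genes on the same strand, lies from 113075839 to 113081584. Crybb3 had 54 corneal and 371 limbal reads, a ratio of 7.34-fold (95% CI 5.51 to 9.96). The intervals of these neighbors overlap.

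Crybb1 and Cryba4 form the other pair on chromosome 5, with 3296 bases between them and transcription in opposite directions away from each other. Crybb1, from 112255815 to 112269585, had the fewest reads of the members in both libraries. Its 25 corneal and 312 limbal reads gave the highest ratio of the 9, 13.3-fold, with the widest interval (95% CI 8.87 to 20.9). Cryba4, from 112246493 to 112252518, had 93 corneal and 549 limbal reads. Its ratio of 6.31-fold (95% CI 5.06 to 7.95) was the lowest of the beta chains. The intervals of these 2 neighbors are apart, so genes side by side differed beyond counting error.

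Cryba1, which makes a pair of related chains from a single transcript and is also known from retinal astrocytes, lies on chromosome 11 from 77718615 to 77725283. It had 186 corneal and 1374 limbal reads, a ratio of 7.89-fold (95% CI 6.77 to 9.25). Cryba2 lies on chromosome 1 from 74889934 to 74893143. For Cryba2, 62 corneal and 616 limbal reads gave 10.6-fold (95% CI 8.17 to 14.0). The acidic chains thus ranged from 6.31-fold to 10.6-fold and the basic chains from 7.34-fold to 13.3-fold.

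Crygs encodes γS-crystallin, the gamma chain that persists in the adult lens cortex, and lies on chromosome 16 from 22805203 to 22811577, apart from the other gamma genes. It had 114 corneal and 1022 limbal reads, a ratio of 9.58-fold (95% CI 7.89 to 11.7). This value sits inside the range of the beta chains. Of the 36 pairs of members, the CIs of the ratios overlapped in 22. Of the 14 pairs that were apart, 8 involved Cryab.

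**Figure D2:**
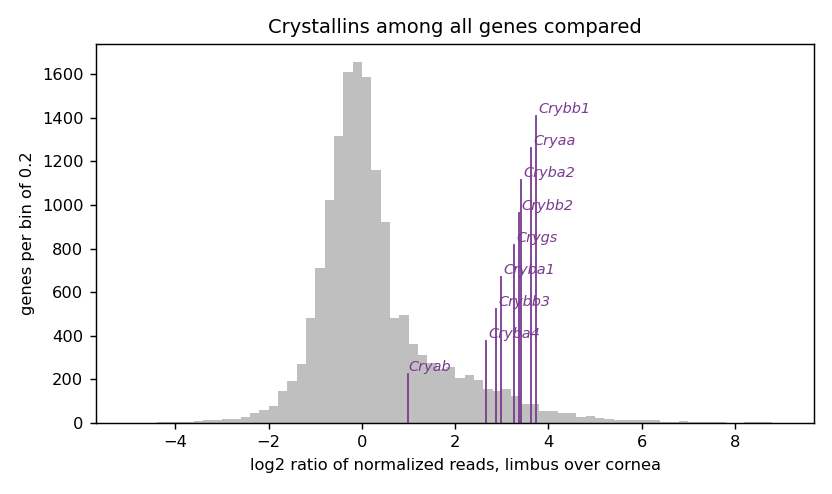
Histogram of the log2 ratio of normalized reads (limbus over cornea, bins of 0.2) for the 15569 genes compared, with a line at the value of each crystallin. The height of a line carries no value. Cryab lies at 0.997 and the other 8 lie between 2.66 and 3.74, toward the right end of the distribution.

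Levels were compared between members as RPKM, the reads per kb of the longest principal transcript and per 1000000 reads on named genes. In the cornea, Cryab led with 86.4 RPKM and made up 61.8% of the summed level of the 9 genes. Cryaa followed with 14.3 and Crybb2 with 13.8, and these neighbors in the order did not differ beyond counting error. Cryba1 had 9.16, Crygs 4.99, Cryba4 4.41, Cryba2 3.30, Crybb3 2.32 and Crybb1 1.09. Between Crygs and Crybb3, no neighbors in the order were apart.

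In the limbus, Cryaa had 204 and Cryab 199 RPKM, with overlapping intervals, and they made up 25.1% and 24.4% of the summed level. Crybb2 came next with 164, followed by Cryba1 with 83.4, Crygs with 55.1, Cryba2 with 40.4, Cryba4 with 32.1, Crybb3 with 19.6 and Crybb1 with 16.7. All neighbors in this order were apart except Cryaa with Cryab and Crybb3 with Crybb1. Apart from Cryab, the order by this length was nearly the same in both libraries, and only Cryba2 and Cryba4 changed places. With all annotated exons as the length, an alternative chosen after seeing the data, Cryab led in the limbus too, with 150 against 123 for Cryaa. By that length Cryba4 lay above Cryba2 in both libraries, at 4.25 and 1.99 in the cornea and 30.9 and 24.4 in the limbus. Crygs then lay above Cryba1 (4.99 and 4.47, 55.1 and 40.7) and Crybb1 above Crybb3 (0.97 and 0.89, 15.0 and 7.51). The order of these members thus depends on the length used.

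**Figure D3:**
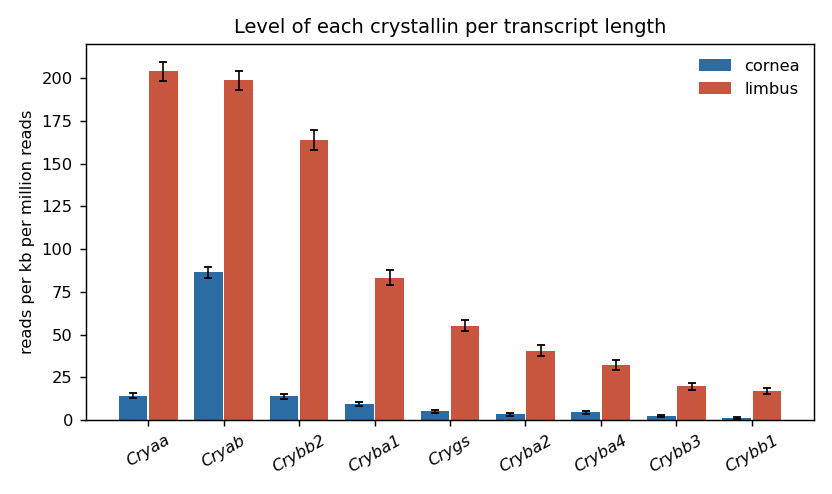
Level of each crystallin as RPKM, reads per kb of transcript and per 1000000 reads on named genes (bars from 0, exact 95% counting intervals). In the cornea Cryab stands alone at 86.4, while in the limbus Cryaa, Cryab and Crybb2 reach 204, 199 and 164.

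Summed over the 9 genes, crystallin reads reached 147 RPM, reads per 1000000 reads on named genes, in the cornea (95% CI 143 to 152) and 827 RPM in the limbus (95% CI 815 to 839). Without Cryab, the member with the most corneal reads, the values were 50.9 (95% CI 48.2 to 53.7) and 605 (95% CI 595 to 616). The ratio of normalized reads was 4.87-fold with Cryab and 10.3-fold (95% CI 9.74 to 10.9) without it, the latter ratio being an alternative chosen after seeing the data.

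The table also lists other members of the crystallin family. The gamma genes Cryga to Crygf, whose products fill the fiber cells and which all lie on chromosome 1, had 198 corneal and 1704 limbal reads, a log2 ratio of normalized reads of 3.20 (95% CI 2.99 to 3.42). The limbus had more of 5 of these 6 genes beyond counting error, beside 34.0% of all genes compared. Crygb had 82 corneal and 671 limbal reads, Crygc 49 and 480, and Crygd 54 and 447. Cryga, with 4 and 11 reads, had a log2 ratio of 1.56 whose interval reached from -0.20 to 3.66. There were 3.77 beta crystallin reads for each read of these gamma genes in the cornea (95% CI 3.22 to 4.44) and 3.74 in the limbus (95% CI 3.54 to 3.95). Of the windows of 75 bases in the Crygb transcripts, 26.3% also occur in Crygc, and 35.3% of those of Cryge occur in Crygd or Crygf, so reads of single gamma genes are uncertain. None of the 9 members shared such a window with another gene on the same strand. On the opposite strand, 178 windows of Cryab lie in Hspb2 and 127 of Cryaa in an antisense gene, and the sources used here do not say whether the counting used strand, so reads of these overlaps cannot be told apart.

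Other genes listed by a crystallin name, some of them enzymes, were counted too. They are grouped by name and are not a single protein family. Of the 10 symbols listed, 8 were in the table. The others, Crybg1 and Crybg2, are newer symbols of Aim1 and Aim1l, which were in it. Of the 8, the limbus had more of 2 and the cornea more of 3 beyond counting error. These counts stand beside 34.0% and 36.5% of all genes compared, and the median log2 ratio was 0.06. Aim1, a nonlens protein with beta-gamma crystallin folds, had 10640 corneal and 7691 limbal reads, or -0.37 on the log2 scale (95% CI -0.42 to -0.33). Crybg3, of the same kind, had 3608 and 2687 reads, or -0.33 on the log2 scale (95% CI -0.40 to -0.26). Aim1l, with 6467 and 6441 reads, was among the 2 higher in the limbus, at 0.09 on the log2 scale (95% CI 0.04 to 0.14). Cryzl1, a quinone oxidoreductase relative, had 835 and 535 reads. Cryz, a quinone reductase that is a lens crystallin in some other mammals, had 155 and 148 reads, and its interval from -0.31 to 0.36 included 0. Crygn, a gamma gene by its symbol, had 12 and 18 reads, and its interval from -0.45 to 1.87 included 0. Over all 14 genes of the list found in the table, Cryga to Crygf among them, 7 were higher and 3 lower in the limbus beyond counting error. The shares over all genes compared were 34.0% and 36.5%.

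Small heat shock proteins are the wider family of the alpha crystallins. Of 8 genes listed by their Hspb symbols alone, 6 had more than 3 reads in a library. Of these 6, 4 were higher and 2 lower in the limbus beyond counting error, beside 34.0% and 36.5% of all genes compared. Hspb1, with the most reads of them, was lower in the limbus, with 14701 corneal and 9500 limbal reads and a log2 value of -0.53 (95% CI -0.57 to -0.50). Hspb8, a chaperone prominent in muscle, had 13 corneal and 1382 limbal reads, a ratio of 114-fold (95% CI 66.2 to 214). Hspb6, the muscle protein Hsp20, had 99 and 200 reads. Hspb11, the other gene lower in the limbus, had 357 and 183 and is counted by its symbol only. Hspb2 lies head to head with Cryab on chromosome 9 and overlaps it on the opposite strand. Hspb2 had 9 corneal and 69 limbal reads, a ratio of 8.19-fold (95% CI 4.07 to 18.7), whose interval was apart from that of Cryab.

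Other genes of the lens fiber cell all had fewer reads than Cryaa in both libraries. Of 12 listed, 10 had more than 3 reads in a library, with a median log2 ratio of 2.71. Of these 10, 8 were higher and 0 lower in the limbus beyond counting error, beside 34.0% and 36.5% of all genes compared. Mip, the aquaporin of the fiber cell membrane, had 3 corneal and 35 limbal reads, a ratio of 12.5-fold (95% CI 3.93 to 63.4). There were 156 Cryaa reads for each Mip read in the cornea (95% CI 53.1 to 759) and 155 in the limbus (95% CI 111 to 223). Mip was set against Cryaa after its values were seen, and the corneal value rests on 3 Mip reads. Lgsn, encoding lengsin, had 11 and 138 reads and a ratio of 13.4-fold (95% CI 7.26 to 27.5). The beaded filament gene Bfsp2 had 15 and 94 reads, whereas its partner Bfsp1 had 247 and 286 and a log2 ratio of 0.31 (95% CI 0.06 to 0.56). Lenep, a lens epithelial gene, had 69 and 141 reads. Dnase2b, the nuclease that clears the fiber cell nucleus, was listed at 0 in both libraries, and a count of 0 allows up to 3 reads in each.

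Transcription factors of the lens were counted in the same way. Of 13 listed, 10 had more than 3 reads in a library, of which 4 were higher and 3 lower in the limbus beyond counting error, beside 34.0% and 36.5% of all genes compared, with a median log2 ratio of 0.44. Pax6, the eye field factor that the corneal epithelium also makes, had 18145 corneal and 10507 limbal reads. Tfap2a had 2027 and 1072, Mafk 1349 and 1268, and Meis1 1206 and 954. The lens factors Foxe3, Pitx3 and Sox1 were listed at 0 in both libraries. Among factors with fewer reads, Prox1 had 1 corneal and 23 limbal reads, Six3 3 and 34, and Hsf4 13 and 43, each higher in the limbus beyond counting error. Maf, like these chosen after its values were seen, had 46 corneal and 138 limbal reads, or 1.68 on the log2 scale (95% CI 1.19 to 2.20).

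Genes of the neural retina were also higher in the limbus. Of 9 neural retina genes listed, 8 passed the same interval rule toward the limbus, beside 34.0% of all genes compared. None of the 9 was at 0 in either library. Gnat1, the alpha subunit of rod transducin, had 160 corneal and 1506 limbal reads, a ratio of 10.1-fold (95% CI 8.54 to 11.9). Prph2, a rod and cone disc protein, had 41 and 493 reads, and Sag, the rod arrestin, had 63 and 478. The exception was Glul, glutamine synthetase, which many tissues make, with 30986 corneal and 22570 limbal reads. Summed over all 9 genes, most of whose reads were those of Glul, the level was 1201 RPM in the cornea and 1220 RPM in the limbus, a ratio of normalized reads of 0.881. Without Glul, left out after its values were known, the summed level of the other 8 was 14.1 RPM in the cornea and 155 RPM in the limbus, a ratio of normalized reads of 9.50-fold. For each read of these 8 genes there were 3.60 reads of the 8 members other than Cryab in the cornea (95% CI 3.21 to 4.05) and 3.91 in the limbus (95% CI 3.76 to 4.06). The part of retinal or lens tissue in the crystallin values was not tested.

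**Figure D4:**
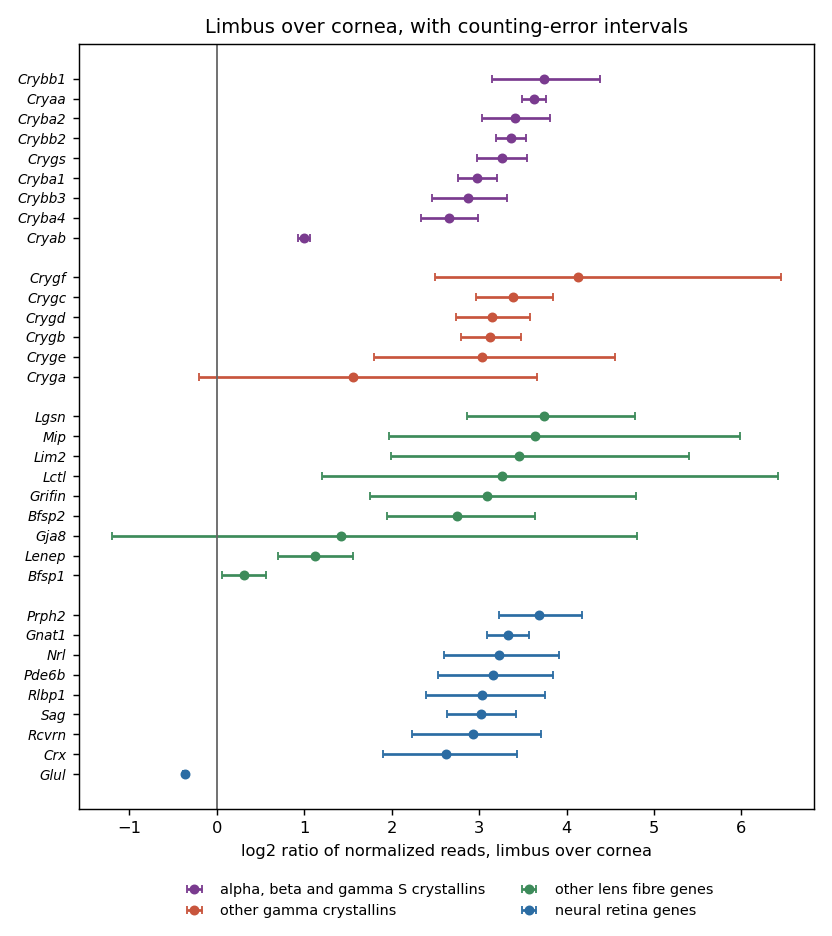
Log2 ratio of normalized reads, limbus over cornea, with exact 95% counting intervals, for the 9 crystallins, the other gamma crystallins, other lens fiber genes and neural retina genes with at least 1 read in each library. The line marks equal levels. Of the 9 crystallins, Cryab lies at 0.997 and the others between 2.66 and 3.74. Gnat1 lies at 3.33 and Glul at -0.36.

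Skeletal muscle genes, which accompany Cryab and several small heat shock proteins in striated muscle, were higher in the limbus for 7 of 7. The share over all genes compared was 34.0%. Summed, the 7 muscle genes had 3.29 RPM in the cornea and 520 RPM in the limbus, and Des was at 0 in the cornea. Myh4, a fast myosin heavy chain, had 8 and 3126 reads, Tnnt3 5 and 1926, Ckm 5 and 1653, and Acta1 10 and 1564. In the cornea there were 29.3 Cryab reads for each read of the 7 muscle genes (95% CI 23.6 to 36.7), whereas in the limbus there were 0.427 (95% CI 0.412 to 0.442). The cornea library had 2518 reads of Cryab and 86 of those muscle genes. The part of muscle in the level of Cryab was not tested for either library. Smooth muscle genes, with 4 of 4 higher in the limbus beyond counting error beside the same 34.0%, summed to 3.03 and 71.8 RPM, Acta2 having 40 and 730 reads.

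The remaining cell type lists gave the following levels, with counts that stand beside 34.0% higher and 36.5% lower in the limbus over all genes compared. Melanocyte and pigmented epithelium genes were higher in the limbus for 6 of 6, with 12.4 RPM in the cornea and 76.7 in the limbus, Dct having 183 and 710 reads. Schwann cell genes were higher in the limbus for 4 of 4, with 168 and 317 RPM, of which Mbp had 4334 and 5495 reads. Of 5 keratocyte genes, 2 were higher and 2 lower in the limbus, and of 5 corneal epithelial genes all 5 were lower there. Krt12 is among these 5, and its direction was fixed in advance because it was used to set the direction of all ratios. Aldh3a1, the aldehyde dehydrogenase that serves as a corneal crystallin, had 634936 corneal and 255152 limbal reads, or -1.22 on the log2 scale (95% CI -1.23 to -1.21). Its direction was opposite to that of the lens crystallins.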

How the data were processed

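Limbal rims and corneal buttons were pooled by tissue. The paper states that the authors used CLC Genomics Workbench to trim adaptors, to map reads (GRCm38) and to normalize by trimmed mean of M-values. The ratios given here keep the scaling of the deposited means. A trimmed mean of M-values computed here from the read numbers raised every log2 ratio by 0.02. The counting's strand setting is not given in the sources used here. Of 40904 rows in the table, 17484 name no gene and stayed out of all totals, and 4 rows with repeated symbols stayed out of the gene comparisons. The authors deposited a mean normalized signal per gene, a log2 fold change, its SE, and p-values of their comparison. The p-values were not used, and the log2 values only chose read pairs. The table does not name its numerator, and the direction rests on the tissues in which the paper's text places keratins 12 and 19.

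Each mean is the average of reads of 2 libraries over size factors, 109 cornea reads being worth 102 limbus reads. Between 4 and 70 pairs of read numbers fit the mean of each member. In a negative binomial model with a normal prior, the chosen pair met the deposited fold change and standard error of every member to within 1.81e-06, while the next pair missed by at least 9.69e-04 for 6 members and the model allowed no other pair for 3. Over all genes, 53 with tied pairs were placed by dispersion. The method was tested on simulated data. Read numbers are derived values, not a count table. The identifiers printed beside the gene symbols did not appear to belong to the same genes and were not used, so each gene rests on its symbol alone.

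CIs of limbus over cornea ratios come from the Clopper-Pearson interval of the limbal fraction of reads. For read ratios inside a library, the same interval was taken for the fraction of reads on the first gene or set. RPM levels have Clopper-Pearson intervals of their share of reads on named genes. RPKM levels and plotted normalized reads have exact Poisson intervals. Libraries with 3 reads or fewer were set at 3 reads for calls and medians. The members and all gene lists were chosen with earlier results of these data known. Named genes are all members, Hspb2 and up to 4 genes with the most reads of each list. Mip, Dnase2b, Des, Foxe3, Pitx3, Sox1, Maf, Prox1, Six3, Hsf4, Cryga, Crygb, Crygc, Crygd, Crygn and Cryz were chosen after their values were seen. Pax6 is in 2 lists, and 2 genes of the lists are not reported here. Positions are from GENCODE M21. An antisense gene overlaps Cryaa, Nufip2 overlaps Cryba1 on the opposite strand, and a processed pseudogene overlaps Crybb2. The calculations used Python 3.11.15, numpy 2.4.6, scipy 1.17.1 and pandas 2.3.3. The scaling, pseudocount, read pairs, filters, interval level and summed genes were varied.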

Additional observations from a re-analysis of the deposited data

How the results depend on the processing

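The limbus had the higher level of all 9 crystallins beyond counting error under total-read scaling, the trimmed mean of M-values, filters of more than 3 reads in both libraries or a mean of at least 50, and a 99% interval. Scaling to total reads raised every log2 ratio by 0.21, giving 2.49 for the summed members in place of 2.28, medians of 3.47 for the members (3.26 otherwise) and 3.24 for neural retina genes (3.04 otherwise), and 45.1% of all genes higher in the limbus against 26.7% in the cornea. The 4.41 log2 ratio of the sum from the next best read pairs rests on pairs that miss the deposited values. After seeing the data, the sum was repeated without Cryab, which gave 3.37, and without Cryaa, which gave 1.94. Without Cryab, the members took 50.9 RPM in the cornea and 605 in the limbus. With all annotated exons as the length, the log2 ratio of Cryaa over Cryab in the limbus was -0.28 in place of 0.04. Of 33 recomputed member ratios, 24 stayed within their interval, 9 moved out of it and 0 changed direction, and under the scalings and the pseudocount they ranged from 0.997 to 3.94. No paired analysis was possible because the values are not given per sample, and for the same reason no replicate could be left out. Depth limits Crybb1 most, with 25 reads in the cornea.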
